A study of Mus musculus with 24 samples.

Results

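The 9 genes described here, Clec4f, Vsig4, Timd4, Marco, Cd68, Csf1r, Cd5l, C1qa and C1qb, are markers of Kupffer cells and other macrophages. They were chosen by name from the gene symbols of the deposited tables, where each had 1 entry, and are 9 of 24339 genes measured in mouse liver; all 9 were among the 12282 genes tested. Kupffer cells are the resident macrophages of the liver and sit in the sinusoids, where they clear microbes, dying cells and worn red cells from the blood. They are seeded before birth, maintain themselves through the CSF1 receptor, and carry a set of receptors, such as CLEC4F, VSIG4 and TIM-4, that sets them apart from macrophages newly made from monocytes. The 9 genes were read in whole liver, so fewer macrophages and less of each RNA per macrophage cannot be told apart in any result that follows.

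The study asked how activation of the constitutive androstane receptor (CAR, gene Nr1i3), a nuclear receptor of hepatocytes that switches on drug metabolism, acts on liver RNA in newborn and adult mice. All mice were C57BL/6. The ligand groups were hCAR-TG mice, in which human CAR was knocked in, given CITCO, a ligand of human CAR, at day 60 (adult) or day 5 (newborn), and wild type (WT) mice given TCPOBOP, a ligand of mouse CAR, at day 60 or day 5. Each was set against mice of the same genotype and age given corn oil. That makes 8 groups of 3 libraries, 24 in all. Receptor and ligand always differed together, so a difference between the CITCO and TCPOBOP responses cannot be assigned to either. Neither a dose nor the promoter that drives human CAR is given in the sources used here. Nothing in the labels ties a library to its own animal, so p-values measure the spread between these libraries, which may be technical.

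Values are FPKM, fragments per kilobase of transcript scaled to the mapped fragments of the library, as deposited, and their sum per library was 451546 to 502499. The number of reads is unknown. The interval that the authors gave with each value reached 1.42% to 15.1% of the value to either side over the 9 genes, with a median of 3.92%. Mouse Nr1i3 stood at 6.94 to 9.93 FPKM in adult hCAR-TG livers and 53.4 to 76.9 FPKM in adult WT livers under corn oil, and at 18.7 to 27.7 FPKM in newborn hCAR-TG livers and 43.8 to 68.6 FPKM in newborn WT livers, so the genotypes separated under corn oil. Under the ligands it was 8.55 to 11.9 FPKM in adult hCAR-TG livers given CITCO and 19.3 to 23.9 FPKM in adult WT livers given TCPOBOP, but higher in newborn hCAR-TG livers given CITCO, at 28.6 to 34.0 FPKM, than in newborn WT livers given TCPOBOP, at 13.5 to 17.9 FPKM. The 7 hepatocyte markers summed to 21260 to 74646 FPKM over the 24 libraries. Tests used limma on log2(FPKM + 1) in 1 model of the 8 groups, two-sided, and a gene was called at an adjusted p (Benjamini-Hochberg over the 12282 genes) under 0.05. A change given as log2 is on that scale, which understates the change of low genes. The third newborn hCAR-TG corn oil library stood apart: its mean distance from its group was 0.260 on the log2 scale, against 0.0976 to 0.180 in the others, and its intestinal genes summed to 87.9 FPKM, against 1.85 to 38.6 FPKM. In 3 further newborn libraries, WT corn oil 2, WT TCPOBOP 2 and hCAR-TG CITCO 1, pancreatic genes summed to 258 to 366 FPKM, against at most 34.3 FPKM elsewhere. Values without these 4 libraries, a choice made after seeing the data, stand beside the newborn results.

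The 9 genes spanned 2 orders of magnitude, from 2.51 to 284 FPKM. Marco, a scavenger receptor that binds bacteria and particles, moved most, with a ratio of 93.9 between its highest and lowest library. Timd4, whose protein TIM-4 binds phosphatidylserine on dying cells, moved by a ratio of 10.2, Csf1r, the receptor for CSF1 and IL-34, by 5.67, and Cd5l, the secreted macrophage protein AIM, by 4.96. The ratio was 4.02 for Cd68, a lysosomal protein of macrophages generally, and 3.83 for Vsig4, the complement receptor of the immunoglobulin family. It was 3.27 for C1qa and 3.32 for C1qb, which encode A and B chains of the first complement component C1q. Clec4f, a C-type lectin of Kupffer cells, moved least, by 2.38. The entries span, on mm10, chr6:83644542-83656116 for Clec4f, chrX:96247203-96293438 for Vsig4, chr11:46810799-46844333 for Timd4, chr1:120474538-120505084 for Marco, chr11:69664213-69666170 for Cd68, chr3:87357881-87371074 for Cd5l, chr4:136895916-136898844 for C1qa and chr4:136880145-136886177 for C1qb.

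**Figure D1:**
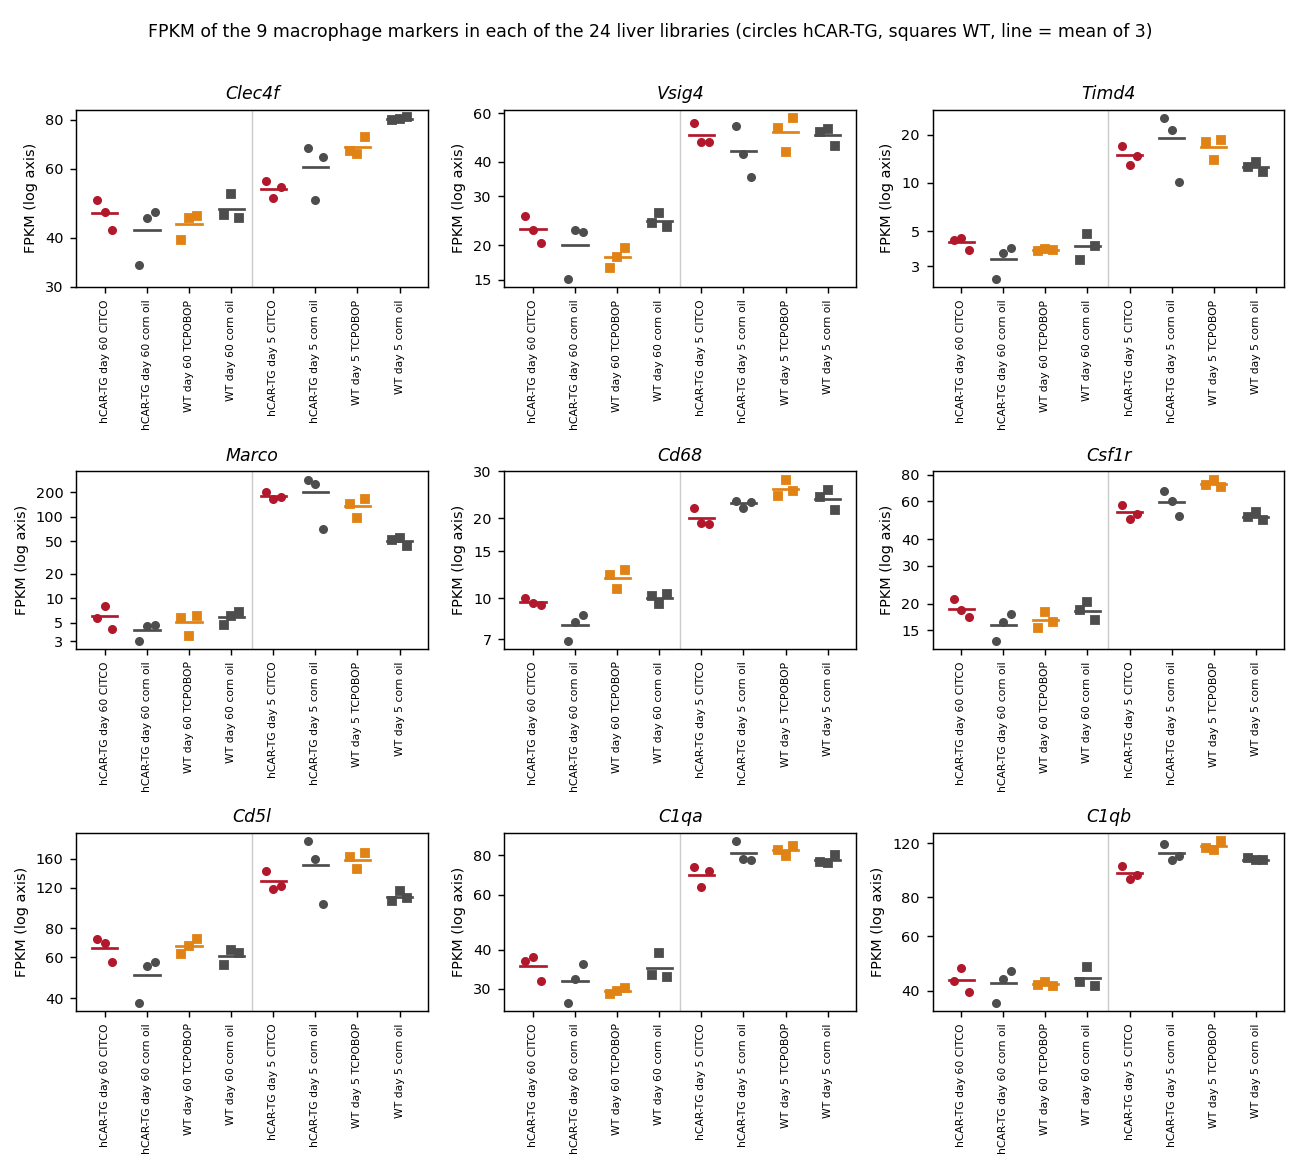
FPKM of each of the 9 genes in each of the 24 libraries, on a log axis, by group, with points for libraries and a bar for the group mean. For 8 of the 9 genes every newborn library lies above every adult library. For Clec4f the newborn CITCO group, 50.4 to 55.8 FPKM, and the newborn hCAR-TG corn oil group overlap the adult WT corn oil group.

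In 8 of the 9 genes the lowest newborn group lay above the highest adult group with no library in common. Clec4f was the exception, since newborn hCAR-TG livers given CITCO, at 53.4 ± 2.71 FPKM, overlapped adult WT livers given corn oil, at 47.5 ± 3.803 FPKM (SD, n = 3 each). The lowest newborn hCAR-TG corn oil library also lay below the highest adult WT corn oil library for this gene. The order of the group means among newborns differed by gene. Newborn WT livers given TCPOBOP ranked first for Vsig4, Cd68, Csf1r, Cd5l, C1qa and C1qb. Newborn hCAR-TG livers given corn oil ranked first for Timd4 and Marco, and newborn WT livers given corn oil ranked first for Clec4f, at 80.5 ± 0.695 FPKM, apart from the next group, newborn WT given TCPOBOP at 68.1 ± 3.77 FPKM. For Vsig4 and Timd4 every pair of neighbours in the order overlapped except at the step between the ages. For Csf1r, newborn WT TCPOBOP livers lay apart from the next group, newborn hCAR-TG corn oil livers. For Cd5l newborn hCAR-TG CITCO livers lay apart from newborn WT corn oil livers, while for C1qa and C1qb newborn WT corn oil livers lay apart from newborn hCAR-TG CITCO livers. The first adult hCAR-TG corn oil library was lowest of all 24 for 9 of 9 genes.

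The genes tracked one another to unequal degrees. C1qa and C1qb, which lie on chromosome 4 with C1qc between them, had the smallest distance between their standardised log2 profiles over the 24 libraries (root mean square 0.110), and the C1qa to C1qb ratio stayed between 0.692 and 0.858. Timd4 and Marco were at 0.185, and Clec4f and Marco were farthest apart, at 0.783. Against the mean profile of the 9 genes, which holds each gene itself, the distance was 0.127 for Csf1r and C1qb, 0.131 for C1qa, 0.188 for Timd4, 0.227 for Vsig4, 0.256 for Cd68, 0.257 for Cd5l, 0.282 for Marco and 0.526 for Clec4f. The 5 other genes nearest to the mean profile over the 24 libraries were C1qc at 0.107, Cfp at 0.112, Adgre1 at 0.127, Sdc3 at 0.146 and Cd86 at 0.149. These distances are descriptions over libraries that fall into newborn and adult groups.

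The promoters of Marco and Clec4f are shown because these were the 2 genes called between the genotypes in newborns, and those of Timd4 and Cd5l because they were called there without the third hCAR-TG library, as described later. Each is the 250 bases before the annotated start in RefSeq GRCm38.p6, 5′ to 3′ on the strand of the gene: Marco on the minus strand at chr1:120505025-120505274, Timd4 on the plus strand at chr11:46810549-46810798, Cd5l on the plus strand at chr3:87357631-87357880 and Clec4f on the minus strand at chr6:83656117-83656366. Capitals mark GGAAGT and AGGAAG, core letters bound by ETS factors such as PU.1, on either strand; they overlap where they read AGGAAGT. The letters were chosen after the promoters were read. For Marco the entry given above ends at chr1:120505084, inside this window, so its start there differs from the RefSeq start.
Marco: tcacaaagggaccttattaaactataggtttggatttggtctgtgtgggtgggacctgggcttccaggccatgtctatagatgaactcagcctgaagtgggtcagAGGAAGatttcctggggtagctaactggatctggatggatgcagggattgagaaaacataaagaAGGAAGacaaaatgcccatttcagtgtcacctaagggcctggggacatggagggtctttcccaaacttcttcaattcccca
Timd4: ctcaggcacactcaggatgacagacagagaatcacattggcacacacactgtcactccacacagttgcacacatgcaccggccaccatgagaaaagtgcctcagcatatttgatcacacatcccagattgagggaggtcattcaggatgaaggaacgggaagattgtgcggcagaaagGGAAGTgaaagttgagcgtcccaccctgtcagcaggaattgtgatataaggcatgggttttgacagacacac
Cd5l: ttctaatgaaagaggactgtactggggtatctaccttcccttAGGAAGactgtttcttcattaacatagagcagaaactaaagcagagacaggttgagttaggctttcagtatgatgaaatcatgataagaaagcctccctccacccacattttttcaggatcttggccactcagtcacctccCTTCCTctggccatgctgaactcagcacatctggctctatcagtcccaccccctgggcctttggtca
Clec4f: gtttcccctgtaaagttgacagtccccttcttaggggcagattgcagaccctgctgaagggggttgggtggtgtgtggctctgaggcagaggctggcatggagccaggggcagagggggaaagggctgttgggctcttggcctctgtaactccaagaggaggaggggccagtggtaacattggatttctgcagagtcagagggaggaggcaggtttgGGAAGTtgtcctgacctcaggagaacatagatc
Promoters of 7 of the 9 genes were matched. GGAAGT was found in 4 of the 7, against 19.7% of 32851 promoters of the same length, AGGAAG in 3 of the 7, against 29.5%, and either in 6 of the 7, against 38.8%. Because the letters were chosen after these promoters were read, the counts cannot show an excess over other promoters. A match describes letters in the window only.

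All 9 genes fell with age under corn oil, in both genotypes. In adult hCAR-TG livers Marco was 4.11 ± 0.937 FPKM, against 202 ± 115 FPKM in newborn hCAR-TG livers, 49.2-fold lower, and in adult WT livers it was 5.85 ± 1.08 FPKM, against 50.5 ± 5.73 FPKM in newborn WT livers, 8.63-fold lower (SD, n = 3 each). Clec4f fell least, 1.45-fold in hCAR-TG and 1.69-fold in WT livers. All 9 of 9 genes were called lower in both genotypes, where 47.3% of tested genes were called lower in hCAR-TG (71.6% in either direction) and 44.9% in WT (70.2% in either direction). The ages did not overlap for any of the 9, where 70.5% of tested genes did not in hCAR-TG and 74.3% did not in WT.

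The Kupffer receptors came first by role. Clec4f was 34.2, 45.0 and 46.5 FPKM in adult hCAR-TG livers, against 67.6, 49.9 and 64.2 FPKM in newborn hCAR-TG livers, and 45.6, 51.9 and 45.0 FPKM in adult WT livers, against 80.03, 80.2 and 81.3 FPKM in newborn WT livers. The ages did not overlap in either genotype, and the log2 change was -0.52 ± 0.11 in hCAR-TG and -0.75 ± 0.11 in WT (SE; limma adjusted p = 0.000241 and 3.43e-06). Vsig4 was 15.1, 22.6 and 22.3 FPKM in adult hCAR-TG livers, against 54.1, 42.6 and 35.2 FPKM in newborn ones, and 24.04, 26.1 and 23.3 FPKM in adult WT livers, against 51.4, 52.8 and 45.9 FPKM in newborn ones. It fell 2.19-fold in hCAR-TG and 2.04-fold in WT (limma adjusted p = 1.27e-06 and 4.46e-06). Timd4 was 2.51, 3.62 and 3.94 FPKM in adult hCAR-TG livers, against 25.6, 21.4 and 10.2 FPKM in newborn ones, and 3.31, 4.77 and 4.03 FPKM in adult WT livers, against 12.6, 13.4 and 11.8 FPKM in newborn ones. It fell 5.68-fold in hCAR-TG and 3.12-fold in WT (limma adjusted p = 3.16e-08 and 6.63e-06). The third newborn hCAR-TG library was the lowest of its group for both Vsig4 and Timd4, yet still above every adult library.

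Marco was 3.03, 4.65 and 4.66 FPKM in adult hCAR-TG livers, against 284, 251 and 70.7 FPKM in newborn hCAR-TG livers. In WT it was 4.68, 6.06 and 6.81 FPKM in adult livers, against 52.2, 55.2 and 44.1 FPKM in newborn livers. The log2 change was -5.10 ± 0.38 in hCAR-TG and -2.92 ± 0.38 in WT (limma adjusted p = 9.21e-10 and 1.81e-06), and the 2 changes differed by -2.18 ± 0.54 (adjusted p = 0.0186 by limma). Marco was the only member called for that difference, where 6.94% of tested genes were called and 4.84% were called negative. In a fit of only the 4 corn oil groups its adjusted p was 0.0992. Without the third newborn hCAR-TG library the difference was -2.82, and Timd4 (-1.06), Csf1r (-0.52) and Cd5l (-0.95) were called too; without all 4 libraries with other tissue the Marco difference was -2.88 and the same 4 genes were called.

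Of the general macrophage genes, Cd68 fell 2.88-fold in hCAR-TG and 2.36-fold in WT livers (log2 change -1.42 ± 0.08 and -1.16 ± 0.08), and Csf1r fell 3.73-fold and 2.75-fold. Cd68 was 6.91, 8.14 and 8.64 FPKM in adult hCAR-TG livers, against 23.3, 21.9 and 23.1 FPKM in newborn ones. In WT it was 10.1, 9.52 and 10.4 FPKM in adult livers, against 24.002, 25.5 and 21.4 FPKM in newborn ones. All newborn levels of Cd68 under corn oil lay within 21.4 to 25.5 FPKM, above every adult level. Csf1r was 13.4, 16.5 and 17.9 FPKM in adult hCAR-TG livers, against 66.9, 60.2 and 51.04 FPKM in newborn ones, and 18.6, 20.3 and 16.7 FPKM in adult WT livers, against 50.6, 53.6 and 48.9 FPKM in newborn ones. Neither pair of groups overlapped in hCAR-TG or WT. Among the secreted proteins, Cd5l fell 2.99-fold in hCAR-TG and 1.80-fold in WT livers, C1qa 2.56-fold and 2.21-fold, and C1qb 2.64-fold and 2.42-fold. Cd5l was 38.3, 55.2 and 57.5 FPKM in adult hCAR-TG livers, against 190.1, 159 and 102 FPKM in newborn ones, and 55.4, 64.4 and 62.7 FPKM in adult WT livers, against 105, 116 and 108 FPKM in newborn ones. C1qa was 27.1, 32.3 and 35.9 FPKM in adult hCAR-TG livers, against 88.7, 77.7 and 77.6 FPKM in newborn ones, and 33.1, 39.1 and 32.8 FPKM in adult WT livers, against 76.1, 75.6 and 80.3 FPKM in newborn ones. No adult library reached the lowest newborn library for either gene. C1qb was 36.6, 43.6 and 46.3 FPKM in adult hCAR-TG livers, against 119, 106 and 109 FPKM in newborn ones, and 42.6, 47.5 and 41.5 FPKM in adult WT livers, against 107, 105 and 106 FPKM in newborn ones. The limma adjusted p of these 5 genes was at most 0.000168 in either genotype.

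**Figure D2:**
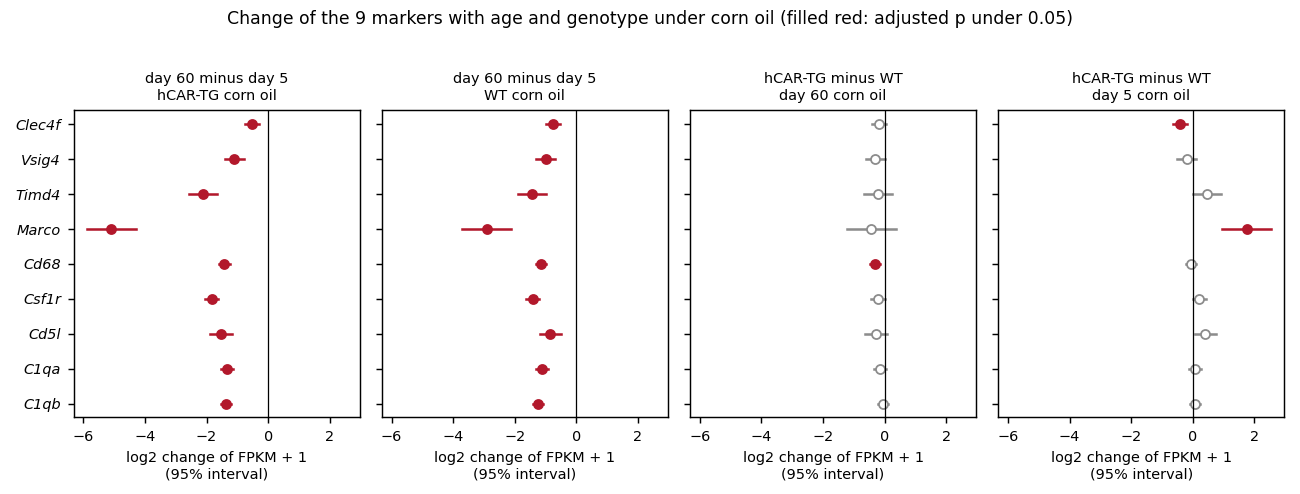
Log2 change of FPKM + 1 for the 9 genes with 95% intervals: adult minus newborn in hCAR-TG and in WT livers, and hCAR-TG minus WT in adult and in newborn livers, all under corn oil; filled red marks an adjusted p under 0.05. All 9 genes lie left of 0 with age in both genotypes, and Marco lies farthest left; between genotypes 1 gene is filled in adults and 2 in newborns.

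The median of the 9 log2 changes with age was -1.42 in hCAR-TG and -1.16 in WT, against -0.17 and -0.14 over all tested genes. Median-of-ratios scaling brought those all-gene medians to 0.01 and 0.00 and the share of calls that were higher to 50.2% in hCAR-TG and 49.5% in WT, against 33.9% and 36.0% unscaled; all 9 genes stayed lower and called. After it the smallest change was that of Clec4f, -0.30 in hCAR-TG and -0.57 in WT (limma adjusted p = 0.0226 and 0.00013). The number closing each read file name, whose meaning the labels do not state, could be entered as a factor for the WT comparison, where all 9 stayed called lower, through steps set by single libraries of other groups; for hCAR-TG it cannot be told apart from the groups. Leaving out any 1 library, or the 4 libraries with other tissue, left 9 of 9 called in both.

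Most other macrophage genes from a list moved the same way. Cd163 and Nr1h3 went the other way in WT, where Cd163 was 4.43 to 5.36 FPKM in adults and 1.87 to 2.92 FPKM in newborns. Nr1h3 was 41.7 to 46.8 FPKM in adult WT and 27.1 to 33.5 FPKM in newborn WT livers. Of the 20 other genes of Kupffer identity, 16 fell and 1 rose in hCAR-TG, and 16 fell and 2 rose in WT; Slc40a1, the iron exporter, changed by -1.65 and Axl, a receptor for dying cells, by -1.34 in WT. C1qc, the C chain of C1q, fell by 1.46 in hCAR-TG and 1.29 in WT livers on the log2 scale, and Adgre1, which encodes F4/80, fell by 1.96 and 1.39. Of 5 genes of macrophage growth signals or their receptors tested, all 5 fell in both genotypes, among them Csf1, a ligand of CSF1R, by 1.11 in hCAR-TG and 0.84 in WT livers. Il34, the other ligand of CSF1R, was too low to be tested. In WT livers it went the other way, at 0.554 to 1.01 FPKM in adults and 0.341 to 0.497 FPKM in newborns. Genes shared with monocytes and neutrophils fell in 17 of 20 cases in hCAR-TG and 16 of 20 in WT, and neutrophil markers in 12 of 12 in both. Lymphocyte and dendritic markers fell in 8 of 8 cases in both, and sinusoidal endothelial markers in 10 of 14 in both. Neutrophil markers summed to 41.3 to 74.1 FPKM in adult and 1273 to 1603 FPKM in newborn hCAR-TG livers, and 12.9 to 29.1 FPKM in adult and 354 to 908 FPKM in newborn WT livers. Their part in the result for the members was not tested.

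Under corn oil, newborn hCAR-TG livers held 4.002 times the Marco of newborn WT livers and 0.752 times the Clec4f. Marco was 284, 251 and 70.7 FPKM in hCAR-TG livers, against 52.2, 55.2 and 44.1 FPKM in WT livers, and the groups did not overlap (log2 difference 1.75 ± 0.38, limma adjusted p = 0.00543). Clec4f was 67.6, 49.9 and 64.2 FPKM in hCAR-TG livers, against 80.03, 80.2 and 81.3 FPKM in WT livers, with every hCAR-TG library lower (-0.42 ± 0.11, limma adjusted p = 0.017). These were 2 of 9 genes called, where 10.6% of tested genes were called (8.29% higher, 2.27% lower), and the only 2 of 9 whose groups did not overlap, where 21.7% did not. Of all calls 78.5% were higher in hCAR-TG, and 63.3% after median-of-ratios scaling.

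Timd4 and Cd5l were not called, with log2 differences of 0.47 ± 0.22 and 0.41 ± 0.17 (limma adjusted p = 0.19 and 0.139). For both, the third hCAR-TG library was below every WT library and the other 2 were above. Without that library, in which intestinal genes summed highest, Timd4 differed by 0.85 (adjusted p = 0.000565 by limma), Cd5l by 0.66 (0.00344) and Marco by 2.39 (6.95e-06), so 4 of 9 genes were called. Without all 4 libraries with other tissue these 4 were called too, at 0.89 for Timd4, 0.70 for Cd5l, 2.45 for Marco and -0.47 for Clec4f (limma adjusted p = 0.000646, 0.00781, 2.94e-05 and 0.0457). The Clec4f call was lost without WT library 1 (limma adjusted p = 0.0507), WT library 2 (0.0524) or hCAR-TG library 2 (-0.29, 0.107), and a fit of these groups alone called 0 of 9, with Marco at 0.169 and Clec4f at 0.191. In this comparison the read file number cannot be told apart from the groups. C1qc (0.01 ± 0.08) and Adgre1 (0.32 ± 0.14) were not called (limma adjusted p = 0.964 and 0.15). Of the 20 other genes of Kupffer identity only Cd163 (0.70) and Nr1h3 (0.30) were called, both higher in hCAR-TG. Genes shared with other myeloid cells went both ways, with Lyz2 (1.23), Cd14 (0.58) and Itgb2 (0.48) called higher and Fcer1g (-0.50) and Fcgr3 (-0.42) called lower. Neutrophil markers were higher in 10 of 12 cases, at a sum of 1273 to 1603 FPKM in hCAR-TG livers and 354 to 908 FPKM in WT livers, and erythroid markers in 8 of 9 cases, at 7527 to 9390 FPKM in hCAR-TG livers and 3082 to 4164 FPKM in WT livers. Their part in the result was not tested.

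The ratio of Marco to Clec4f, both receptors of Kupffer cells, shows the split within each library. Its median was 3.23 in newborn hCAR-TG livers given CITCO, 4.21 in those given corn oil, 2.14 in newborn WT livers given TCPOBOP and 0.652 in those given corn oil. In adult livers it was 0.116 with CITCO and 0.1001 with corn oil in hCAR-TG, and 0.134 with TCPOBOP and 0.117 with corn oil in WT. A ratio above 1 therefore occurred in 9 newborn libraries, those of every newborn group but WT corn oil.

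**Figure D3:**
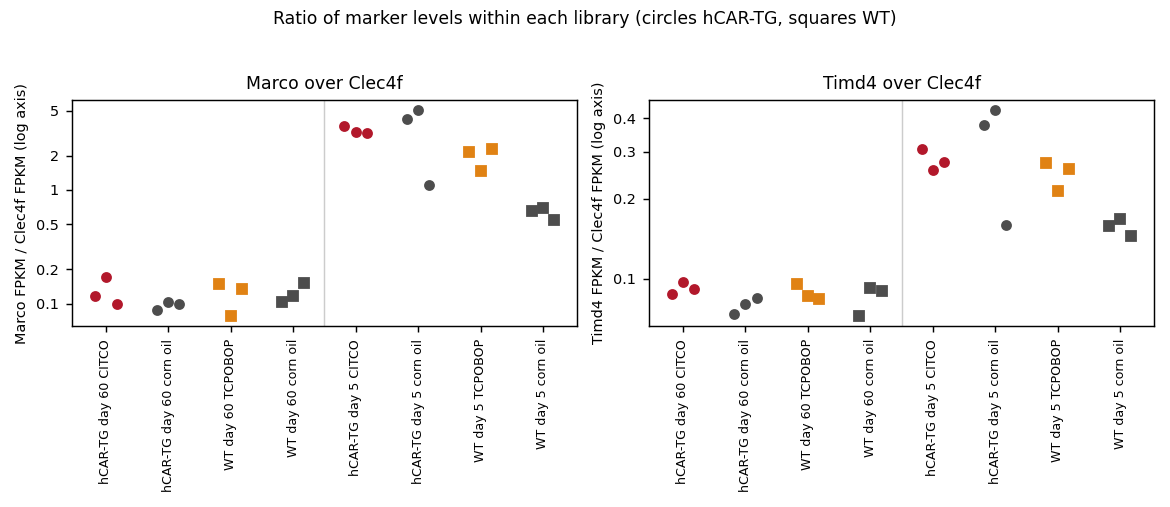
Ratio of Marco to Clec4f FPKM and of Timd4 to Clec4f FPKM in each of the 24 libraries, on log axes, by group. The Marco to Clec4f ratio ran from 0.0780 to 5.04 and the Timd4 to Clec4f ratio from 0.0724 to 0.430, with the newborn groups above the adult groups in both.

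In adult livers under corn oil, all 9 genes were lower in hCAR-TG by their means, from -0.43 for Marco to -0.06 for C1qb on the log2 scale, and 1 was called. Cd68 was 6.91, 8.14 and 8.64 FPKM in hCAR-TG livers, against 10.1, 9.52 and 10.4 FPKM in WT livers (-0.31 ± 0.08, limma adjusted p = 0.0256). The groups did not overlap for Cd68, Vsig4 or Marco, though for Marco the nearest libraries lay closer together than the interval the authors gave with a value. Of tested genes 4.9% were called, 1.85% as lower, and 24.9% did not overlap. The call was lost without hCAR-TG library 1 (-0.23, adjusted p = 0.196 by limma), which was the lowest of 24 for every member, without WT library 1 (0.0564) or WT library 3 (0.0979), and with the read file number as a factor (0.177), a fit in which the third adult TCPOBOP library alone sets the step between the numbers of the 2 groups.

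TCPOBOP in newborn WT livers raised Marco, Csf1r and Cd5l. Marco was 143, 96.6 and 165 FPKM with TCPOBOP, against 52.2, 55.2 and 44.1 FPKM with corn oil, 2.67-fold (log2 change 1.37 ± 0.38, limma adjusted p = 0.00857). Csf1r was 71.6, 76.0 and 69.9 FPKM with TCPOBOP, against 50.6, 53.6 and 48.9 FPKM with corn oil, 1.42-fold (0.50 ± 0.10, adjusted p = 0.000736 by limma). Cd5l was 162, 144 and 169 FPKM with TCPOBOP, against 105, 116 and 108 FPKM with corn oil, 1.45-fold (0.53 ± 0.17, adjusted p = 0.0194 by limma). For each of the 3 genes every TCPOBOP library was above every corn oil library. They were 3 of 9 called, all higher, where 35.9% of tested genes were called and 24.6% were higher.

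Clec4f was 66.7, 65.3 and 72.4 FPKM with TCPOBOP, against 80.03, 80.2 and 81.3 FPKM with corn oil, and Timd4 was 18.1, 13.9 and 18.7 FPKM with TCPOBOP, against 12.6, 13.4 and 11.8 FPKM with corn oil. The groups did not overlap for Clec4f (-0.24 ± 0.11, limma adjusted p = 0.0962), which was lower with TCPOBOP, or for Timd4 (0.39 ± 0.22, 0.175) and C1qb (0.14 ± 0.08, 0.175), which were higher, so 6 of 9 did not overlap, where 47.6% of tested genes did not. None of these 3 was called, while a fit of only these 2 groups called Clec4f (adjusted p = 0.0292) and Timd4 (0.025) besides. After median-of-ratios scaling Clec4f was called (-0.31, limma adjusted p = 0.0361). For Vsig4, Cd68 and C1qa the log2 difference was 0.03 ± 0.15, 0.12 ± 0.08 and 0.10 ± 0.09 (limma adjusted p = 0.889, 0.262 and 0.422). The Cd5l call was lost without corn oil library 1 (adjusted p = 0.0639), TCPOBOP library 1 (0.0531) or TCPOBOP library 3 (0.0672), whereas Marco and Csf1r were called with any 1 library left out. TCPOBOP library 2, the lowest in Marco of its group, and corn oil library 2 are those with pancreatic RNA. Without the 4 libraries with other tissue Marco changed by 1.66 (limma adjusted p = 0.000221), Csf1r by 0.50 (0.00318), Cd5l by 0.63 (0.00476) and Timd4 by 0.56 (0.00642), so 4 of 9 were called. The read file number cannot be told apart from the treatment here.

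Among other macrophage genes 5 of 20 rose and 1 fell with TCPOBOP in newborns, a share near that of all tested genes, of which 24.6% rose; Adgre1 rose by 0.38 ± 0.14 on the log2 scale (limma adjusted p = 0.0369) and Fcna, a secreted lectin of the ficolin family, changed by -0.38. Of 17 genes of phagocytosis and lysosomes 8 rose, among them Mfge8, a bridge to dying cells, by 2.71 and the cathepsin gene Ctsl by 0.82. Of 20 genes shared with other myeloid cells 7 rose, with Cd14 at 0.51, at a sum of 638 to 660 FPKM with TCPOBOP and 499 to 532 FPKM with corn oil. Neutrophil markers were called by limma in 0 of 12 cases. Hepatocyte markers fell in 2 and rose in 2 of 7 cases, at a sum of 54338 to 58344 FPKM with TCPOBOP and 73372 to 74646 FPKM with corn oil. Stellate cell markers fell in 7 of 10 cases, at 156 to 182 FPKM with TCPOBOP and 252 to 271 FPKM with corn oil. The part of these changes in the result for the members was not tested.

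In adult WT livers TCPOBOP lowered Vsig4 and C1qa and raised Cd68. Vsig4 was 16.6, 18.2 and 19.5 FPKM with TCPOBOP, against 24.04, 26.1 and 23.3 FPKM with corn oil (-0.42 ± 0.15, limma adjusted p = 0.0242). C1qa was 28.8, 29.6 and 30.2 FPKM with TCPOBOP, against 33.1, 39.1 and 32.8 FPKM with corn oil (-0.23 ± 0.09, adjusted p = 0.0396 by limma). Cd68 was 12.3, 10.8 and 12.8 FPKM with TCPOBOP, against 10.1, 9.52 and 10.4 FPKM with corn oil (0.23 ± 0.08, adjusted p = 0.0236 by limma). The 3 genes were the 3 of 9 whose groups did not overlap, where 60% of tested genes did not and 47.2% were called (31.4% higher, 15.8% lower). All 3 calls were lost without corn oil library 2 (limma adjusted p = 0.0834, 0.217 and 0.093 for Vsig4, C1qa and Cd68) and without TCPOBOP library 1 (0.0933, 0.106 and 0.075). Vsig4 (0.0522) and C1qa (0.0796) were lost without TCPOBOP library 2, and Cd68 (0.109) and C1qa (0.0591) without TCPOBOP library 3. With the read file number as a factor, which takes TCPOBOP library 3 out of the comparison, Cd68 (0.107) and C1qa (0.0558) were not called, and after scaling Cd68 changed by 0.13 (0.23). The other chains of C1q did not share the C1qa call. C1qb had means of 41.9 FPKM with TCPOBOP and 43.9 FPKM with corn oil, and its groups overlapped. C1qc changed by -0.04 ± 0.08 and Adgre1 by 0.04 ± 0.14 (limma adjusted p = 0.756 and 0.832), also with overlap. Some other genes of Kupffer identity were called lower without overlap, with Fcna at -0.55 and Cd163 at -0.48 (limma adjusted p = 0.000358 and 0.0396). Axl at 0.02, Cfp at -0.01, Clec1b at 0.04 and Folr2 at -0.13 were not called. The mean of Slc40a1 was higher, at 43.3 FPKM with TCPOBOP and 36.2 FPKM with corn oil, and its groups overlapped.

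The adult groups overlapped for Marco, at 5.82, 3.505 and 6.11 FPKM with TCPOBOP, against 4.68, 6.06 and 6.81 FPKM with corn oil (-0.17 ± 0.38, adjusted p = 0.755 by limma). For Csf1r the difference was -0.14 ± 0.10 (adjusted p = 0.286 by limma). The adult response was below the newborn one for Marco, by -1.54 ± 0.54 (adjusted p = 0.0446 by limma), and for Csf1r, by -0.64 ± 0.15 (adjusted p = 0.00288 by limma), 2 of 9 genes, where 23.4% of tested genes were called and 9.76% were negative. The Marco difference was lost in 9 of 12 fits that left out 1 library (limma adjusted p = 0.0591 to 0.113), all but those without adult corn oil library 1, newborn TCPOBOP library 2 or adult TCPOBOP library 3. Without the 4 libraries with other tissue 4 of 9 were called, with Marco at -1.83 (0.00114) and Csf1r at -0.64 (0.00456). Of the 8 complement partners tested 6 fell and 1 rose with TCPOBOP in adults, with C4b at -0.96, Serping1, the C1 inhibitor, at -0.88, and C2 at -0.45. The 1 partner not called was C1qc, the C chain of C1q itself (-0.04, limma adjusted p = 0.756). Hepatocyte markers fell in 5 of 7 cases, at a sum of 21260 to 23214 FPKM with TCPOBOP and 37507 to 45752 FPKM with corn oil; their part in the result was not tested.

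CITCO gave no call among the 9 genes in newborn hCAR-TG livers, where limma called 17.1% of tested genes (8.27% higher, 8.82% lower) and 3 of the 9 had an unadjusted p under 0.05. Marco was 203, 163 and 172 FPKM with CITCO, against 284, 251 and 70.7 FPKM with corn oil (log2 change 0.05 ± 0.38, limma adjusted p = 0.942, 95% interval -0.75 to 0.85). C1qb was 101, 91.6 and 94.6 FPKM with CITCO, against 119, 106 and 109 FPKM with corn oil, and C1qa was 73.3, 63.4 and 71.2 FPKM with CITCO, against 88.7, 77.7 and 77.6 FPKM with corn oil. Every CITCO library was lower for both genes, while the groups overlapped for C1qc, the third chain of C1q (-0.05 ± 0.08, adjusted p = 0.716 by limma). The log2 changes of Cd68, C1qa and C1qb were -0.18, -0.23 and -0.21 (adjusted p = 0.131, 0.0851 and 0.0623 by limma). These 3 were the ones whose groups did not overlap, where 35% of tested genes did not; after median-of-ratios scaling C1qb was called (-0.24, limma adjusted p = 0.0394). Timd4 was 17.1, 13.0 and 14.8 FPKM with CITCO, against 25.6, 21.4 and 10.2 FPKM with corn oil, the third corn oil library being the lowest of the 6. Timd4 and Cd5l, at -0.25 and -0.19, rested on the third corn oil library: without it they changed by -0.62 (adjusted p = 0.00722 by limma) and -0.45 (0.0372), and Marco by -0.58 (0.146). Without all 4 libraries with other tissue Timd4 changed by -0.72 (0.00338), Cd5l by -0.52 (0.0333) and Marco by -0.67 (0.104). In both of these fits the corn oil libraries that remain carry another read file number than the CITCO libraries. That number can then not be told apart from the treatment. A fit with the read file number as a factor sets CITCO against the third corn oil library alone, the 1 that stood apart, since it is the only corn oil library that shares the number of the CITCO libraries; Marco was then at 1.32 (0.00624), a comparison with 1 library. Of other macrophage genes 5 of 20 fell and 0 rose, where 8.82% of tested genes fell, with Adgre1 at -0.46 ± 0.14 (adjusted p = 0.027 by limma), and of the genes shared with other myeloid cells 6 of 20 fell, with Cd74 at -0.74. Neutrophil markers fell in 4 of 12 cases, at 740 to 1291 FPKM with CITCO and 1273 to 1603 FPKM with corn oil. Sinusoidal endothelial markers fell in 9 of 14 cases, at 199 to 216 FPKM with CITCO and 248 to 277 FPKM with corn oil. Erythroid markers fell in 1 of 9 cases, and their sum was 5407 to 6208 FPKM with CITCO and 7527 to 9390 FPKM with corn oil. Hepatocyte markers rose in 2 of 7 cases, with a sum of 59807 to 62622 FPKM with CITCO and 65692 to 67864 FPKM with corn oil. The part of these lists was not tested.

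In adult hCAR-TG livers CITCO raised Cd68 alone among the members. Cd68 was 10.005, 9.62 and 9.45 FPKM with CITCO, against 6.91, 8.14 and 8.64 FPKM with corn oil (0.27 ± 0.08, limma adjusted p = 0.0428), and it was the 1 gene of 9 whose groups did not overlap, where 31.9% of tested genes did not, 8.37% were called and 4.4% were higher. The log2 differences of the other 8 ran from 0.04 for C1qb to 0.44 for Marco, all positive and none called. Cd5l was 71.8, 68.9 and 57.3 FPKM with CITCO, against 38.3, 55.2 and 57.5 FPKM with corn oil (0.40 ± 0.17, limma adjusted p = 0.17), and the groups overlapped by 1 library. All 9 changes share the first corn oil library, the lowest of 24 for each gene; without it Cd68 changed by 0.19 (adjusted p = 0.249 by limma) and C1qb by -0.06. The Cd68 call was also lost without corn oil library 2 or any 1 CITCO library (limma adjusted p = 0.0739 to 0.145). It was not called with the read file number as a factor (0.31, adjusted p = 0.151), a fit that rests on CITCO library 1 alone, the only 1 of its group to share the number of the corn oil libraries. Slc40a1 rose by 0.97 ± 0.09 (adjusted p = 4.73e-07 by limma), 1 of 20 other identity genes called.

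**Figure D4:**
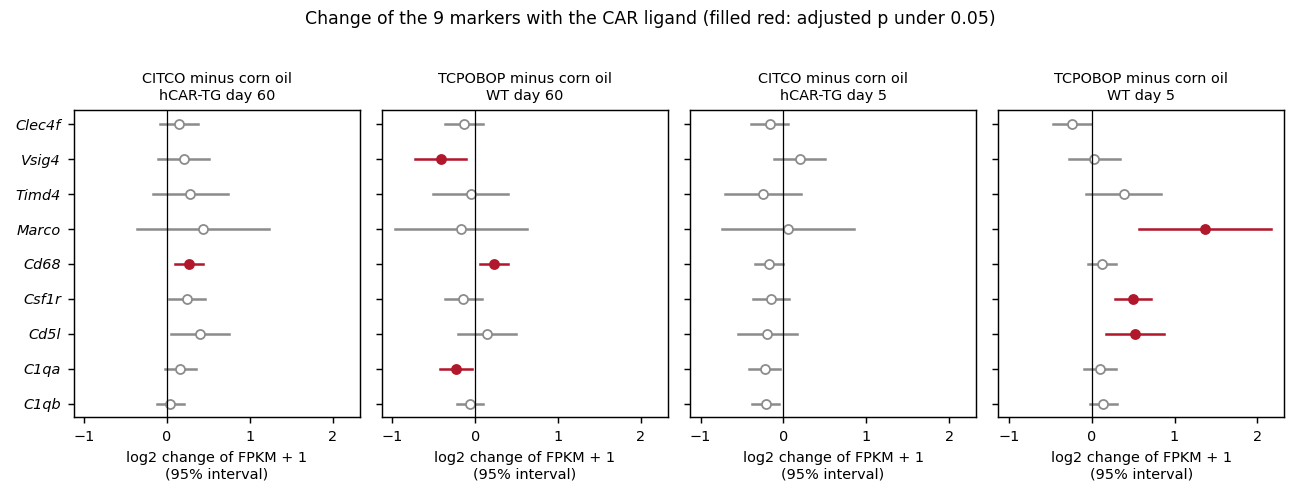
Log2 change of FPKM + 1 for the 9 genes with 95% intervals after CITCO in hCAR-TG livers and after TCPOBOP in WT livers, at day 60 and day 5; filled red marks an adjusted p under 0.05. For TCPOBOP 3 genes are filled at each age, Vsig4, Cd68 and C1qa in adults and Marco, Csf1r and Cd5l in newborns; for CITCO Cd68 alone is filled in adults and no gene in newborns.

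The responses themselves were compared, CITCO in hCAR-TG minus TCPOBOP in WT. In newborns the CITCO response was lower for Csf1r by -0.64 ± 0.15 (adjusted p = 0.0025 by limma), Cd5l by -0.72 ± 0.24 (0.0261), C1qb by -0.35 ± 0.11 (0.0186) and Cd68 by -0.30 ± 0.11 (0.0491). These were 4 of 9 genes, where 33.7% of tested genes were called and 22.2% were negative. Marco differed by -1.32 ± 0.54 without being called (adjusted p = 0.0659 by limma), and by -1.95 (0.000445) without the third newborn hCAR-TG corn oil library, when 6 of 9 were called; without all 4 libraries with other tissue it differed by -2.33 (0.000493), and again 6 of 9 were called. Leaving out 1 library at a time, the Cd68 difference lost its call in 8 of 12 fits (limma adjusted p = 0.0649 to 0.127) and the Cd5l difference in 6 of 12 (0.0518 to 0.0664). In adults the CITCO response was higher for Vsig4 by 0.62 ± 0.21 (adjusted p = 0.0268 by limma), C1qa by 0.39 ± 0.13 (0.0214) and Csf1r by 0.38 ± 0.15 (0.0499), 3 of 9 genes, where 33.8% were called and 9.77% were positive. All 3 calls were lost without adult WT corn oil library 2 (limma adjusted p = 0.0639, 0.0733 and 0.133 for Vsig4, C1qa and Csf1r), adult hCAR-TG corn oil library 1 (0.0907, 0.0771 and 0.163) or adult CITCO library 1 (0.0748, 0.0529 and 0.138), and leaving out 1 library gave 0 to 3 calls; Csf1r lost its call in 8 of 12 such fits and Vsig4 and C1qa in 4 each. Between ages the CITCO response of Cd68 was higher in adults by 0.45 ± 0.11 (adjusted p = 0.0164 by limma), 1 of 9 genes, where 9.99% were called and 5.37% were positive; without the third newborn corn oil library 5 of 9 were called.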

How the data were processed

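Liver RNA was sequenced as polyadenylated, stranded libraries in 24 samples, and the authors deposited 1 table of FPKM per gene for each, with the bounds of an interval and a status, per the file headers. The genome build was mm10 per the submitters' processing notes; the aligner, quantifier and annotation are not given in the sources used here. Symbols listed more than once were summed (24885 entries, 24339 genes), and 5 genes with a failed status were left out. Genes at 1 FPKM or more in 3 or more libraries were kept (12282). File starts, which count from 0, were turned to count from 1.

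Changes were fitted with limma 3.58.1 in R 4.3.3 (lmFit, eBayes with trend and robust) on log2(FPKM + 1), 8 groups in 1 model with 16 residual degrees of freedom, for 13 comparisons. Tables and figures used Python 3.11.15 with pandas 2.3.3 and matplotlib 3.10.9. The fit was checked on simulated data. Alternatives were a pseudocount of 0.1, filters at 5 FPKM or none, median-of-ratios scaling, the read file number as a factor, replicate number as a block, a model of the compared groups alone, leaving out each library and, chosen after seeing the data, leaving out the 4 libraries with other tissue.

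The members and gene lists were chosen with earlier results of these data known. Beyond the genes named by rule, Il34, Cd163 and Nr1h3 are named because they moved against their lists with age in WT livers. A few further genes are named to show both directions of a list, or genes of it that were not called. Named genes are the 9 members, C1qc and Adgre1, up to 4 called genes of a list per comparison with the lowest adjusted p, and the 5 genes nearest to the mean member profile; a count of reads was not used, and depth is unknown, so the authors' interval is the only stated precision of a value.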

Additional observations from a re-analysis of the deposited data

Results flagged for a closer look

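Effects that differed between groups, by a test of the difference, are listed here for the members, on the log2(FPKM + 1) scale with limma adjusted p. For the TCPOBOP response of WT livers at day 60 minus day 5, Marco differed by -1.54 and Csf1r by -0.64 (0.0446 and 0.00288). For the CITCO response of hCAR-TG livers at day 60 minus day 5, Cd68 differed by 0.45 (0.0164). For CITCO in hCAR-TG minus TCPOBOP in WT livers at day 5, Cd68 differed by -0.30, Csf1r by -0.64, Cd5l by -0.72 and C1qb by -0.35 (0.0491, 0.0025, 0.0261 and 0.0186). At day 60 the same difference was 0.62 for Vsig4, 0.38 for Csf1r and 0.39 for C1qa (0.0268, 0.0499 and 0.0214). The change with age under corn oil in hCAR-TG minus that in WT livers was -2.18 for Marco (0.0186). Groups of 3 libraries are too small for a test of a single far library.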

How the results depend on the processing

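The counts of members called (of 9) in the 13 comparisons stayed within 1.5 times under a pseudocount of 0.1 and a filter at 5 FPKM. In fits of only the groups compared the count was 5 for TCPOBOP at day 5, 0 for CITCO at day 60, 5 for the TCPOBOP response between ages, and 0 for genotype at day 5, genotype at day 60 and genotype by age. With no filter it was 1 for TCPOBOP at day 60, 0 for CITCO at day 60, 1 for the TCPOBOP response between ages, 2 for the response difference at day 5, 1 for that at day 60 and 0 for genotype at day 60. With the read file number as a factor it was 1 for TCPOBOP at day 60, 1 for CITCO at day 5, 0 for CITCO at day 60 and 0 for genotype at day 60. Under median-of-ratios scaling it was 1 for CITCO at day 5 and 2 for the CITCO response between ages. Without the 4 libraries with other tissue it was 2 for CITCO at day 5, 2 for CITCO at day 60, 4 for the TCPOBOP response between ages, 5 for the CITCO response between ages, 4 for genotype at day 5 and 4 for genotype by age. With 1 library left out the count ranged over 2 to 3 for TCPOBOP at day 5, 0 to 3 for TCPOBOP at day 60, 0 to 2 for CITCO at day 5, 0 to 1 for CITCO at day 60, 1 to 2 and 1 to 5 for the TCPOBOP and CITCO responses between ages, 2 to 6 and 0 to 3 for the response difference at day 5 and day 60, 1 to 4 and 0 to 1 for genotype at day 5 and day 60, 1 to 4 for genotype by age, and 9 to 9 for age in both genotypes. The cause was not tested in these cases.

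Signs that turned belonged to members not called in the fit reported. Under scaling, Vsig4 changed by -0.038 for TCPOBOP at day 5. With the read file number, which at day 5 sets CITCO against the third corn oil library alone, CITCO at day 5 gave Timd4 0.51, Csf1r 0.061 and Cd5l 0.31, and the CITCO response between ages, which rests on that library and CITCO library 1 of day 60, gave Vsig4 -0.13, Timd4 -0.18 and Marco -0.89. Without the 4 libraries, CITCO at day 5 gave Vsig4 -0.020 and Marco -0.67, and the response difference at day 5 gave Vsig4 -0.21. With 1 library left out, 21 signs turned, and the ranges were these: for TCPOBOP at day 5, Vsig4 -0.053 to 0.15; for TCPOBOP at day 60, Timd4 -0.16 to 0.050 and Marco -0.30 to 0.036; for CITCO at day 5, Timd4 -0.62 to 0.0031 and Marco -0.58 to 0.41; for CITCO at day 60, C1qb -0.057 to 0.11; for the CITCO response between ages, Vsig4 -0.18 to 0.15; for the response difference, Clec4f -0.061 to 0.15 at day 5 and Cd68 -0.043 to 0.099 at day 60; for genotype, Cd68 -0.12 to 0.0036 at day 5 and C1qb -0.13 to 0.037 at day 60; for genotype by age, Vsig4 -0.24 to 0.086.

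The replicate block, for numbers shared between groups, gave 0 calls for CITCO at day 60 and 1 for the TCPOBOP response between ages. No clear pairing by number was seen: 5 of 24 correlations of same-numbered libraries were over 0.1, and in no comparison were all 3. With 3 libraries per group this check cannot exclude a pairing. Depth is unknown, which limits what a value near 0 can show, but the members' lowest value was 2.51 FPKM.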

Other observations

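Genes of Fc receptors, which bind antibody on macrophages and other cells, were looked at after their values were seen. Fcer1g, Fcgr3 and Fcgr2b lie 10.7, 155 and 238 kb from Nr1i3 on chromosome 1. Under corn oil the log2 difference of hCAR-TG from WT livers was -0.60 for Fcer1g, -0.65 for Fcgr3 and -0.48 for Fcgr2b in adults, and -0.50, -0.42 and -0.38 in newborns. Fcer1g was 6.98 to 9.02 FPKM in adult hCAR-TG livers and 12.1 to 14.1 FPKM in adult WT livers, and 28.8 to 31.7 FPKM in newborn hCAR-TG livers and 41.6 to 43.6 FPKM in newborn WT livers. Fcgr3 was 4.05 to 5.46 FPKM in adult hCAR-TG livers and 7.70 to 8.80 FPKM in adult WT livers. Ccl9, a chemokine of myeloid cells, changed by 2.99 with TCPOBOP in adult WT livers and by 1.89 in newborn WT livers. It comes from a list of 17 macrophage cytokine and chemokine genes, 10 of them tested, that did not move as 1. In adult WT livers Cxcl10 (1.28) and Ccl2 (0.66) of that list were also called higher with TCPOBOP. Il18 (-0.80) and Ccl6 (-0.43) were called lower.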
